A study of Homo sapiens with 6 samples.

Results

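The HOX genes encode homeodomain transcription factors and lie in 4 chromosomal clusters, HOXA, HOXB, HOXC and HOXD. Members were the probe sets that the platform annotation gave exactly 1 gene symbol, where that symbol named a HOX gene of a cluster. This found 27 of the 39 HOX genes of RefSeq, among 18417 genes named in the same way, and each of the 27 had 1 probe set. They comprised 10 of 10 HOXB genes, 9 of 9 HOXD genes, 7 of 9 HOXC genes and 1 of 11 HOXA genes, HOXA2. The remaining HOXA and HOXC genes were not analysed here.

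The 6 arrays measured HT29, an established human colorectal adenocarcinoma line. Of these, 3 carried a construct for expression of laminin α1, which is 1 of the chains that build laminins in basement membranes, and 3 carried a control construct. All cells were grown for 7 days, and the design text describes independent passages. The sources used here do not give the number of clones behind a group, so p-values measure the spread between passages. Differences that arose between the cells of the groups in other ways cannot be told apart from an effect of laminin α1. The values are log2 expression values, and a log2 difference is laminin α1 minus control throughout.

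In each cluster the genes are numbered by paralog group, from 1 at the end used in the head and hindbrain to 13 at the end used in the tail, hindgut and genital region. Genes are switched on along the body axis in the order in which they lie in the cluster, and genes of like number in different clusters descend from 1 ancestral gene. HOX proteins bind DNA with partners of the PBX and MEIS families. Polycomb and Trithorax proteins hold the clusters silent or active, retinoic acid and the CDX factors act upstream of them, and in the adult gut the retained HOX pattern differs along its length.

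The clusters also hold microRNAs that repress HOX transcripts, and the mature sequences of the pair in the HOXB cluster are shown because their host genes were on the array. MIR10A lies between HOXB4 and HOXB5, and MIR196A1 between HOXB9 and HOXB13. miR-196a is known to act on HOXB7, HOXB8 and HOXC8. The sequences are from RefSeq, build GRCh38.p14, on the minus strand at chr17:48579904-48579926 for miR-10a and chr17:48632532-48632553 for miR-196a. Capitals mark the seed, bases 2 to 8.
hsa-miR-10a-5p: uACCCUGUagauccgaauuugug
hsa-miR-196a-5p: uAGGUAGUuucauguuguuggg

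Promoters were listed for 11 of the 27 HOX genes. In the 250 bases before the start, these held a median of 21 CG dinucleotides, against a median of 11 over the 27303 genes with an entry. The motif TGATNNAT, a paired PBX and HOX binding sequence, was searched on both strands, where its reverse form reads ATNNATCA. It occurred in 3 of the 11, HOXA2, HOXB1 and HOXD11, or 27.3%, against 6.69% of all genes with an entry. HOXA2 and HOXB1 are shown, since HOX and PBX proteins are known in the mouse to act on both genes. HOXA2 covers chr7:27102684-27102933 and HOXB1 covers chr17:48531012-48531261, both on the minus strand of GRCh38.p14. Capitals mark the motif.
HOXA2: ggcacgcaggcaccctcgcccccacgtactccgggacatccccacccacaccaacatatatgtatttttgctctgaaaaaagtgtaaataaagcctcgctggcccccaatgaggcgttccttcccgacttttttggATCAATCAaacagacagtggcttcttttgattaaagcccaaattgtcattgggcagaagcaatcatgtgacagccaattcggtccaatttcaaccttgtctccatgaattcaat
HOXB1: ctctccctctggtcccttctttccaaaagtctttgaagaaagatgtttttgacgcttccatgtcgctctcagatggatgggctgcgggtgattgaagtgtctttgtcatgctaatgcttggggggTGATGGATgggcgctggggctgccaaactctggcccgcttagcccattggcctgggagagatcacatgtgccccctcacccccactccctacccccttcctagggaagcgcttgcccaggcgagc

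The laminin α1 arrays differed little from the control arrays in HOX genes. HOXB7 rose 1.30-fold, and no other HOX gene passed the test. Of 27 members, 22 had a mean above the level filter of log2 5.50, the 25th percentile of gene means, and were tested with limma over 13812 genes. In that test 1 of 22 was higher at an adjusted p under 0.05, against 2.69% of all genes tested, and 0 were lower, against 2.59%. In either direction this was 4.55% of HOX genes, near the 5.29% of all genes tested, so the count says nothing particular about the cluster genes. Without adjustment 2 of 22 had a p under 0.05, HOXB7 and HOXB9, against 16.7% of all genes tested.

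The sizes were small as well. The median log2 difference of the tested HOX genes was 0.02, against -0.01 over all genes tested, and the median size without sign was 0.06, against 0.08. All 22 tested HOX genes had a 95% interval within a 1.5-fold change either way, as did 95.5% of all genes tested. For the 21 HOX genes other than HOXB7, the interval that reached highest was that of HOXC8, with a fold of at most 1.26, and the one that reached lowest was that of HOXB9, with a fold of no less than 0.811. The median standard error was 0.08 for the tested HOX genes and also 0.08 for all genes tested.

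**Figure D1:**
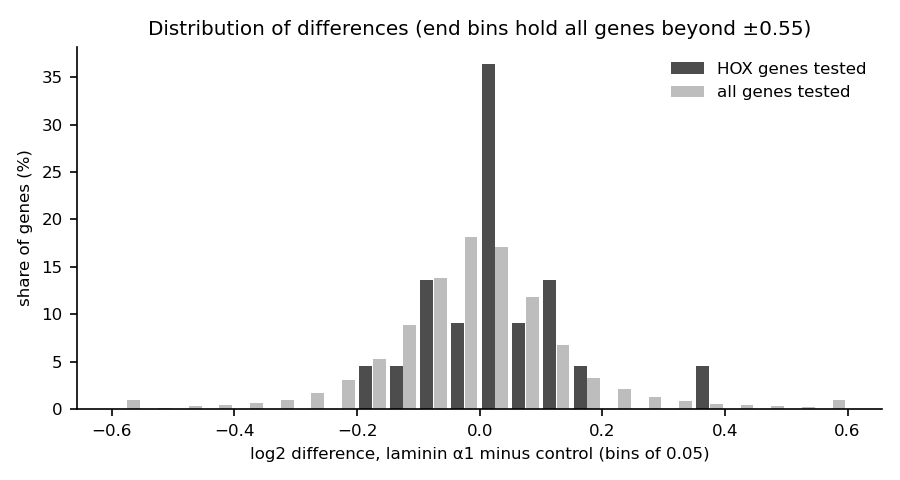
Share of genes, in percent, in bins of 0.05 of the log2 difference, laminin α1 minus control, for the 22 tested HOX genes (dark) and all 13812 tested genes (light). Of the HOX genes 21 lie within 0.2 of 0, and HOXB7 at 0.38 stands alone.

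HOXB7 is a central HOXB gene known in melanoma cells to switch on the growth factor gene FGF2. Its log2 values were 8.67, 8.66 and 8.40 in the laminin α1 arrays and 8.16, 8.27 and 8.17 in the control arrays. All laminin α1 arrays lay above all control arrays, with laminin α1 replicate 3 the nearest to them. The means were 8.58 ± 0.16 and 8.20 ± 0.06 (SD, n = 3 each), a log2 difference of 0.38 (SE 0.09) with a limma adjusted p of 0.0303. The 95% interval of the fold was 1.14 to 1.48, and a larger share of cells with the RNA cannot be told apart from more RNA per cell in such bulk samples. The call was lost without any single one of 5 of the 6 arrays, and held without laminin α1 replicate 3 (adjusted p 0.00315). Without each array in turn the adjusted p of HOXB7 ranged from 0.00315 to 0.150, and the log2 difference from 0.33 to 0.47.

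HOXB7 was also set against the genes on either side of it within each array, a comparison chosen after its values were seen. Its value minus that of HOXB8 was 0.01, 0.15 and -0.01 in the laminin α1 arrays and -0.37, -0.25 and -0.32 in the control arrays. HOXB7 minus HOXB6 was -0.31, -0.11 and -0.40 in the laminin α1 arrays and -0.81, -0.75 and -0.59 in the control arrays. The groups did not overlap in either difference, and the shifts were 0.36 against HOXB8 and 0.44 against HOXB6. These shifts follow from the differences of the single genes, so they are no separate evidence on HOXB7. Both had an exact permutation p of 0.1, two-sided, which is the smallest that 3 against 3 arrays can give.

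**Figure D2:**
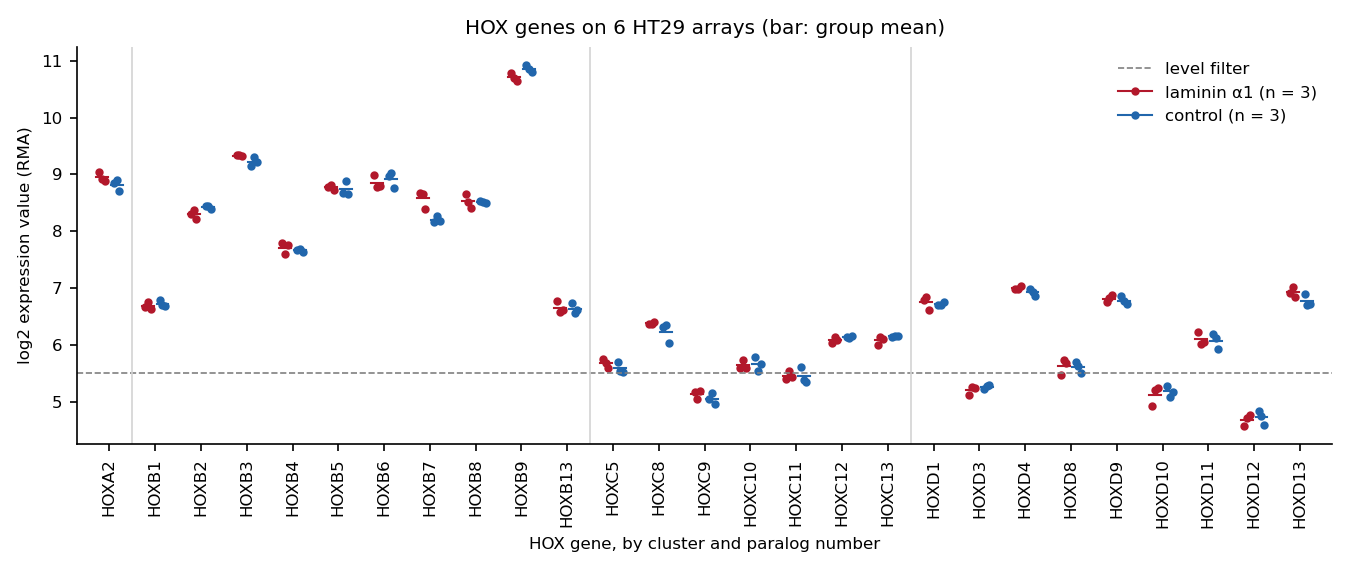
Log2 expression values of the 27 HOX genes by cluster and paralog number, with laminin α1 arrays left and control arrays right of each position, 1 point per array and a bar at each group mean. The dashed line is the level filter of 5.50, and HOXB7 is the gene where the groups stand furthest apart.

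All 10 HOXB genes passed the level filter, as did HOXA2, 5 of 7 HOXC genes and 6 of 9 HOXD genes. The signal of a probe set depends on its probes, so these counts say which genes could be tested and not which cluster was expressed more. HOX genes share the homeobox sequence, so RNA of a paralog could reach the same probes. HOXB3 overlaps HOXB4 in the RefSeq annotation, HOXD3 overlaps HOXD4, and HOXC5 overlaps neighbours in its cluster, which makes the share of each uncertain.

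Among the anterior genes, paralogs 1 to 3, HOXA2 and HOXB2 had differences of opposite sign. HOXA2, which patterns the hindbrain and the second branchial arch, had 9.04, 8.92 and 8.89 in laminin α1 arrays and 8.84, 8.90 and 8.70 in control arrays, and the groups overlapped. HOXB2, a hindbrain gene, had 8.30, 8.37 and 8.22 in laminin α1 arrays and 8.45, 8.45 and 8.40 in control arrays, and the laminin α1 arrays lay wholly below. The differences were 0.13 for HOXA2 (95% interval -0.04 to 0.30) and -0.14 for HOXB2 (95% interval -0.28 to 0.01), and neither passed the limma test (adjusted p = 0.438 and 0.342). HOXB3, which acts in the hindbrain and in blood progenitors, had 9.34, 9.34 and 9.32 in laminin α1 arrays and 9.15, 9.30 and 9.21 in control arrays. Its laminin α1 arrays lay above the control arrays, close together, with a difference of 0.11 (adjusted p = 0.463). HOXB1, HOXD1 and HOXD3 had differences of -0.04, 0.03 and -0.06, with HOXD3 below the level filter.

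The central genes, paralogs 4 to 8, were all above the filter, and 8 of 9 had differences above 0. Over all genes, tested or not, 8454 of 18417 did. The differences of HOXB4, HOXB5, HOXB8 and HOXD8 fell below 0 in some of the alternative fits described below. HOXB7 was the only one called. HOXB5, a gene of the enteric nervous system, had 8.77, 8.81 and 8.73 in laminin α1 arrays and 8.68, 8.88 and 8.66 in control arrays. HOXB6 had 8.99, 8.77 and 8.79 in laminin α1 arrays and 8.97, 9.02 and 8.76 in control arrays. The groups overlapped in both, with differences of 0.03 and -0.07. HOXB8, which keeps myeloid progenitors immature, had 8.66, 8.51 and 8.40 in laminin α1 arrays and 8.53, 8.51 and 8.50 in control arrays. Its control arrays lay inside the range of the laminin α1 arrays, and the difference was 0.01 (95% interval -0.16 to 0.18). HOXB4, a regulator of blood stem cells, differed by 0.04, HOXC5 by 0.08, HOXD4 by 0.08 and HOXD8 by 0.02.

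HOXC8, a trunk patterning gene and a target of miR-196a, had 6.36, 6.37 and 6.40 in laminin α1 arrays and 6.32, 6.35 and 6.03 in control arrays. The laminin α1 arrays lay above, but by little, and control replicate 3 stood apart from the other controls. The difference was 0.14 (95% interval -0.05 to 0.34, adjusted p = 0.482). Without control replicate 3 it was 0.04.

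Among the posterior genes, paralogs 9 to 13, none of the 8 tested passed. HOXB9, a posterior HOXB gene, had 10.78, 10.70 and 10.65 in laminin α1 arrays and 10.92, 10.86 and 10.81 in control arrays. All laminin α1 arrays lay below all control arrays, with a difference of -0.15 (95% interval -0.30 to -0.01), and the limma test was not passed (adjusted p = 0.278). HOXB13, a gene of the distal gut and prostate, had 6.78, 6.58 and 6.61 in laminin α1 arrays and 6.74, 6.56 and 6.62 in control arrays. These nearly coincided, with a difference of 0.02 (95% interval -0.16 to 0.19). HOXD13, which patterns the digits and the hindgut sphincter, had 6.91, 7.02 and 6.83 in laminin α1 arrays and 6.90, 6.70 and 6.72 in control arrays. Its groups overlapped through control replicate 1, and the difference was 0.15 (95% interval -0.03 to 0.33, adjusted p = 0.392).

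Of the other posterior genes, HOXC13, which drives hair keratins, differed by -0.07, HOXC12 by -0.05, HOXC10 by -0.03, HOXD9 by 0.04 and HOXD11 by 0.02. HOXC9, HOXC11, HOXD10 and HOXD12 were below the level filter, and in the limma fit without the filter they differed by 0.09, 0.01, -0.06 and -0.04 (adjusted p 0.676 to 0.986). Their sizes are uncertain at that signal. HOXD3, the fifth gene below the filter, had an adjusted p of 0.770 in that fit.

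Of 11 paralog groups measured in several clusters, 4 had differences above 0 in every cluster measured (4, 5, 8 and 11), 2 below 0 in every one (10 and 12), and 5 had both signs. Paralog 8 had differences of 0.01 in HOXB8, 0.14 in HOXC8 and 0.02 in HOXD8, while paralog 9 had -0.15 in HOXB9, 0.09 in HOXC9 and 0.04 in HOXD9. Paralog 13 had 0.02 in HOXB13, -0.07 in HOXC13 and 0.15 in HOXD13. HOXB7 was the only member measured of paralog 7. The median difference was -0.01 over 6 anterior genes, 0.04 over 9 central genes and -0.01 over 12 posterior genes. By cluster it was 0.01 over 10 HOXB genes, 0.01 over 7 HOXC genes and 0.02 over 9 HOXD genes, all near the -0.01 of all genes. No difference between clusters or paralog groups was tested. Over the tested genes alone the medians were 0.01 in HOXB, -0.03 in HOXC and 0.03 in HOXD. The sign for HOXC thus changed with the gene set. Over these tested genes the sign of the cluster medians also depended on single arrays. With each array left out in turn the HOXB median ranged from -0.04 to 0.03, the HOXC median from -0.035 to 0.084, the HOXD median from -0.03 to 0.06, and the median of all HOX genes from -0.01 to 0.05. The lowest values came without laminin α1 replicate 1 for HOXB, without laminin α1 replicate 2 for HOXC, and without control replicate 3 for HOXD and for all HOX genes. The highest came without laminin α1 replicate 3 for HOXB and without control replicate 1 for the others.

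**Figure D3:**
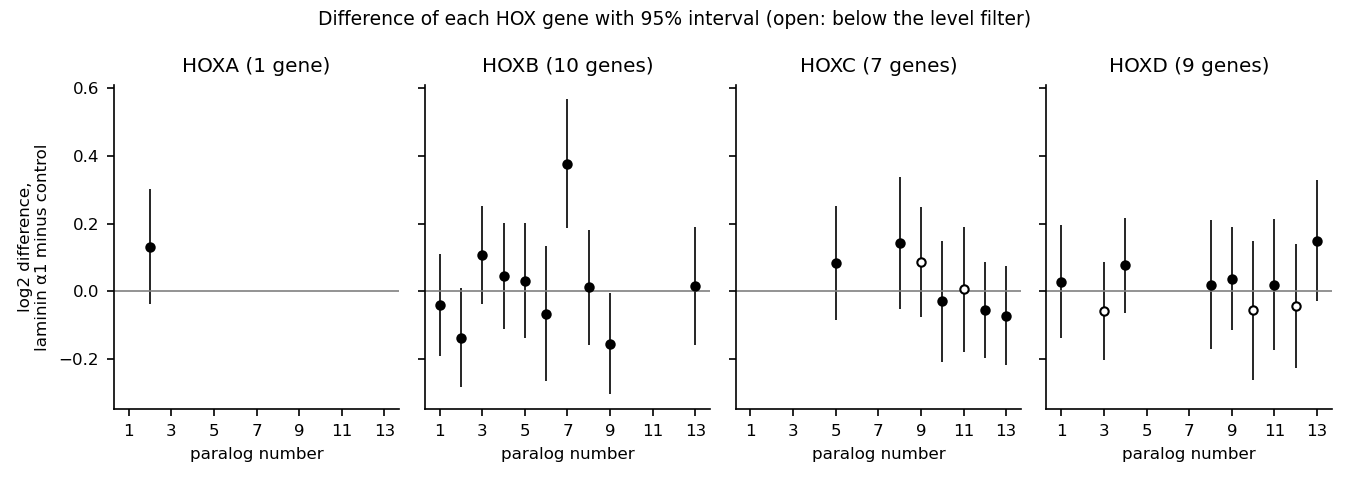
Log2 difference, laminin α1 minus control, with 95% interval from limma for each HOX gene, by cluster (panels) and paralog number (x axis). Open points are the 5 genes below the level filter, and HOXB7 at 0.38 is the only gene called.

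The groups did not overlap for 6 of the 22 tested HOX genes, 4 with laminin α1 higher (HOXB3, HOXB7, HOXC8 and HOXD4) and 2 with it lower (HOXB2 and HOXB9). That is 27.3%, against 21.6% of all genes tested. With laminin α1 higher the background was 10.1% and with it lower 11.5%. Of these 6, HOXB7 alone passed the limma test.

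Along the chromosomes, the strongest change beside a cluster was at HOXB. SKAP1, an adaptor protein of immune cell receptors and the gene next to HOXB1, had 7.92, 7.73 and 7.68 in laminin α1 arrays and 6.95, 7.14 and 6.75 in control arrays. The groups lay well apart, and SKAP1 rose 1.78-fold (log2 difference 0.83, SE 0.10, limma adjusted p = 0.00106). SNX11, a sorting nexin on its far side, had 7.96, 7.78 and 7.68 in laminin α1 arrays and 7.60, 7.41 and 7.36 in control arrays, with a difference of 0.35 that did not pass (adjusted p = 0.0564). HOXB1, HOXB2 and HOXB3, the HOXB genes closest to SKAP1, had differences between -0.14 and 0.11, and HOXB7 lies further in. PRAC1, a small nuclear protein of the prostate and distal colon whose gene lies between HOXB9 and HOXB13, was below the level filter, at 4.93 ± 0.10 in laminin α1 arrays and 4.93 ± 0.04 in control arrays (SD, n = 3 each). Of the listed HOXB neighbours 5 of 7 were tested, and 1 was higher and 0 lower, against 5.29% of all genes called in either direction.

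Beside HOXA2, a called gene fell on each side of the cluster, among neighbours whose differences went both ways. SNX10, a sorting nexin of endosomes, had 6.11, 6.40 and 6.40 in laminin α1 arrays and 6.72, 6.86 and 6.94 in control arrays, and fell 1.45-fold (limma adjusted p = 0.00861). HIBADH, a mitochondrial enzyme of valine breakdown, had 9.83, 9.62 and 9.69 in laminin α1 arrays and 10.00, 10.08 and 10.07 in control arrays, and fell 1.27-fold (limma adjusted p = 0.0234). In both genes the groups did not overlap. The call of HIBADH was lost without any single one of 4 arrays, laminin α1 replicate 2 and each control array (adjusted p up to 0.126). SKAP2, between SNX10 and the cluster, had a difference of 0.17 that did not pass (adjusted p = 0.253). JAZF1, past HIBADH, also had 0.17 and did not pass (adjusted p = 0.190). In SKAP2 and JAZF1 all laminin α1 arrays lay above all control arrays. Of the 6 listed HOXA neighbours 3 had differences above 0 and 3 below. Of 6 listed HOXA neighbours 2 were lower, against 2.59% of all genes tested, and 0 higher. The listed neighbours of HOXC, 8 tested, and of HOXD, 6 tested, had 0 called, with the smallest p at CALCOCO1 (0.15, adjusted p = 0.371) and at NFE2L2 (-0.26, adjusted p = 0.190).

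A window of 6 tested genes on each side, set after the data were seen, gave 3 of 12 lower beside HOXA, 1 of 12 higher beside HOXB and 0 of 12 beside HOXC and HOXD. Against these counts stands the 5.29% of all genes called. The HOXA window added SPMIP4, with a log2 difference of -0.50 (limma adjusted p = 0.00783), further out than SNX10. At its other end CPVL had a log2 difference of 0.23, which did not pass (limma adjusted p = 0.0720). In the HOXB window CBX1 differed by 0.23 (limma adjusted p = 0.0720) and COPZ2 by 0.27 (limma adjusted p = 0.132). CALCOCO2, on the other side of that cluster, differed by -0.27 (limma adjusted p = 0.0917). None of these passed, though the groups did not overlap in CBX1, COPZ2 or CALCOCO2.

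**Figure D4:**
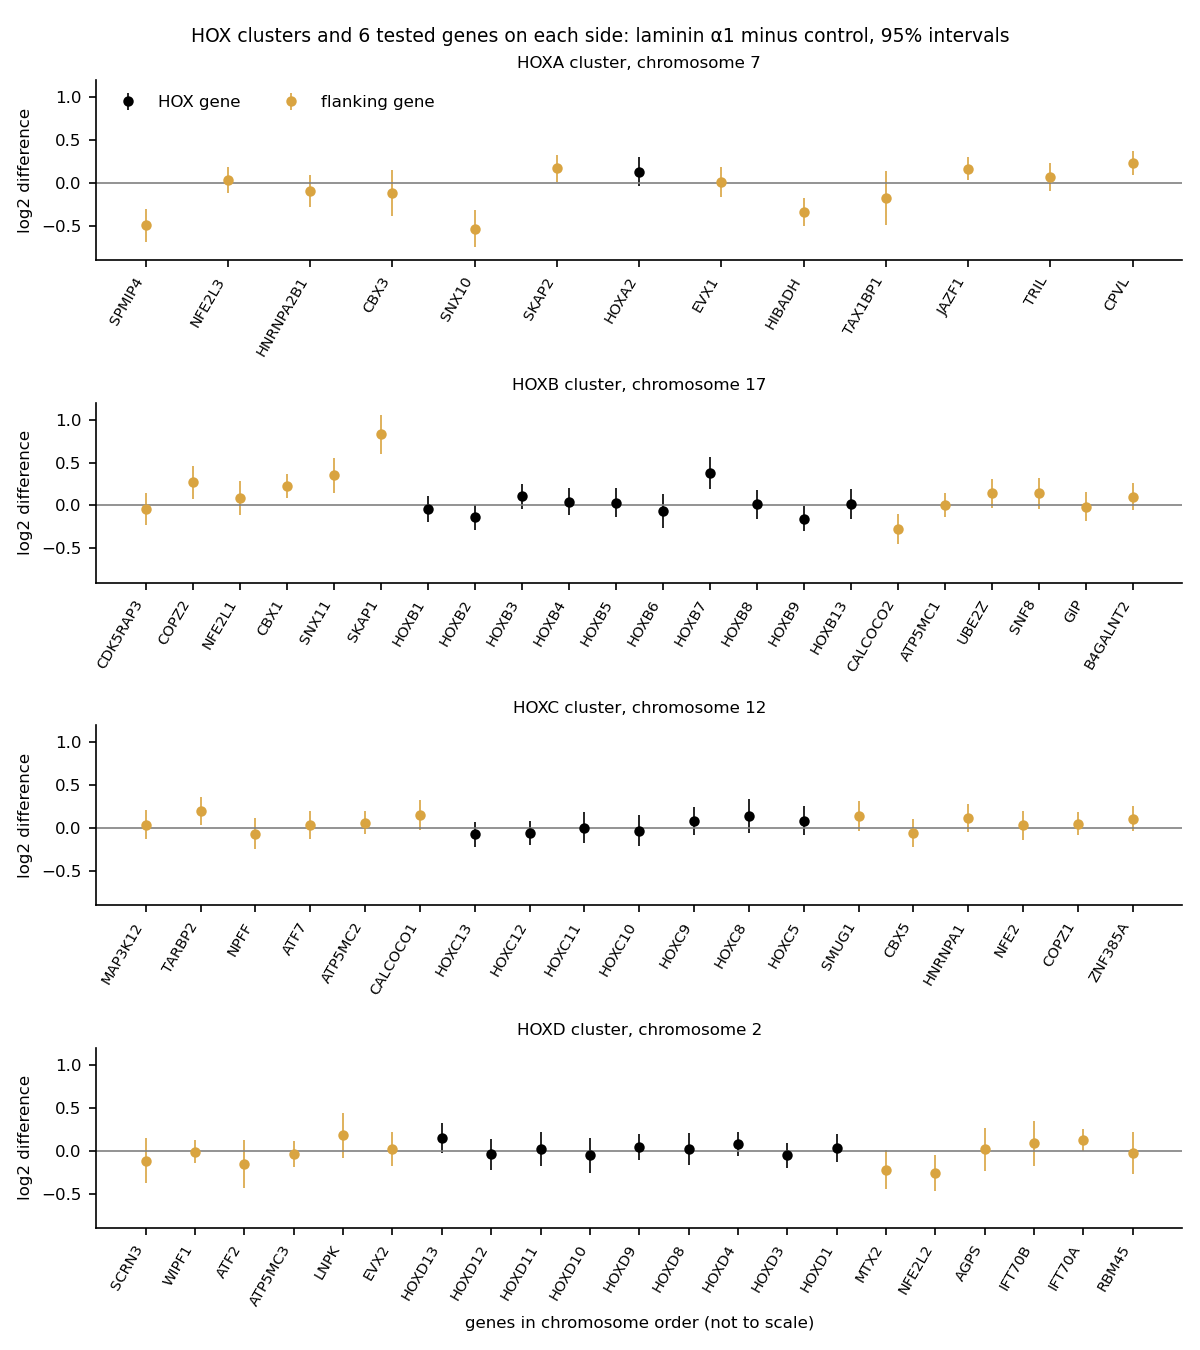
Log2 difference, laminin α1 minus control, with 95% interval, for HOX genes (black) and the 6 nearest tested genes on each side (ochre), in chromosome order and not to scale, 1 panel per cluster. SKAP1 at 0.83 stands beside HOXB1, whose difference is -0.04.

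Noncoding genes of the clusters had 0 of 3 tested members called, against 5.29% of all genes tested, and 6 of 23 listed genes were on the array. HOXB-AS3, an antisense RNA over HOXB5 and HOXB6, had 7.92, 7.62 and 7.67 in laminin α1 arrays and 7.60, 7.58 and 7.54 in control arrays. The laminin α1 arrays lay above the controls, most of all replicate 1, but the difference of 0.16 did not pass (adjusted p = 0.374). HOXA-AS2, which lies past HOXA2 over HOXA3 and HOXA4, differed by 0.05 (adjusted p = 0.887). MIR196A1 had 7.35, 7.23 and 7.34 in laminin α1 arrays and 7.24, 7.32 and 7.27 in control arrays, a difference of 0.03 (adjusted p = 0.869). The groups overlapped, and the array probes read the host transcript or hairpin rather than the mature strand shown above. MIR10A, MIR10B and MIR196A2 were below the level filter.

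Of the partner proteins, 1 of 7 tested was higher, or 14.3%, and 0 were lower, against 2.69% and 2.59% of all genes tested, and with 7 genes that share rests on MEIS2 alone. MEIS2, a homeodomain protein that binds DNA with PBX and HOX proteins, had 10.08, 10.12 and 10.13 in laminin α1 arrays and 9.79, 9.80 and 9.81 in control arrays. Each group was tight and they lay apart, and MEIS2 rose 1.24-fold (log2 difference 0.31, SE 0.06, limma adjusted p = 0.0123). Its call was lost when any single one of 3 arrays was left out, with an adjusted p of 0.0703 for laminin α1 replicate 2, 0.0507 for control replicate 1 and 0.0805 for control replicate 2. PBX3, a direct HOX partner, had 9.11, 8.88 and 8.94 in laminin α1 arrays and 9.17, 9.18 and 9.13 in control arrays, with a difference of -0.19 that did not pass (adjusted p = 0.230). MEIS1, MEIS3, PBX4, PKNOX1 and PKNOX2 had differences between -0.14 and 0.06.

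Upstream regulators of the clusters mostly showed no call. CDX1, an intestinal homeodomain factor, had 7.06, 7.09 and 7.14 in laminin α1 arrays and 7.19, 7.09 and 7.01 in control arrays. CDX2, the factor that sets intestinal identity, had 7.20, 7.21 and 7.21 in laminin α1 arrays and 7.24, 7.17 and 7.13 in control arrays. In both genes the groups overlapped, with differences near 0 (95% interval -0.16 to 0.15 for CDX1 and -0.11 to 0.16 for CDX2). Of 5 tested CDX and ParaHox genes 0 were called, against 5.29% of all genes, and PDX1 had the smallest p (-0.07, adjusted p = 0.633).

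Of 28 Polycomb genes 0 were called, against 5.29% of all genes tested. Without adjustment 9 of the 28, or 32.1%, had a p under 0.05, against 16.7% of all genes tested. The smallest p was at PHF1, which brings the Polycomb complex to chromatin. PHF1 had 7.41, 7.25 and 7.09 in laminin α1 arrays and 7.02, 6.79 and 6.67 in control arrays, which did not overlap, with a difference of 0.42 (SE 0.11, limma adjusted p = 0.0512), and EZH2, the enzyme of that complex, -0.17. Of 24 Trithorax and MLL genes 0 were called and 0 had an unadjusted p under 0.05, the smallest p was at PAXIP1 (-0.14, adjusted p = 0.328), and KMT2A, the methylase that keeps HOX genes active, differed by 0.01. Among 11 tested retinoic acid genes 1 was higher, or 9.09%, against 2.69% of all genes tested, and 0 were lower. This was CRABP2, which carries retinoic acid to its receptors. CRABP2 had 10.86, 10.85 and 10.71 in laminin α1 arrays and 10.53, 10.49 and 10.35 in control arrays, and rose 1.27-fold (limma adjusted p = 0.0239). The groups did not overlap, but the call was lost without any single one of 4 arrays, laminin α1 replicates 1 and 2 and control replicates 2 and 3 (adjusted p up to 0.119).

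Among 58 tested homeobox genes outside the clusters 2 were higher and 0 lower, or 3.45%, against 2.69% of all genes higher and 5.29% called in either direction. MSX2, a homeobox repressor of transcription, had 7.58, 7.42 and 7.41 in laminin α1 arrays and 6.89, 6.82 and 7.08 in control arrays. MSX2 rose 1.45-fold (limma adjusted p = 0.00410). BARX2, a homeobox gene of epithelia and muscle, had 8.79, 8.65 and 8.58 in laminin α1 arrays and 8.26, 8.23 and 8.17 in control arrays, and rose 1.37-fold (limma adjusted p = 0.00534). The groups lay apart in both, and both stayed past the threshold without each array in turn.

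**Figure D5:**
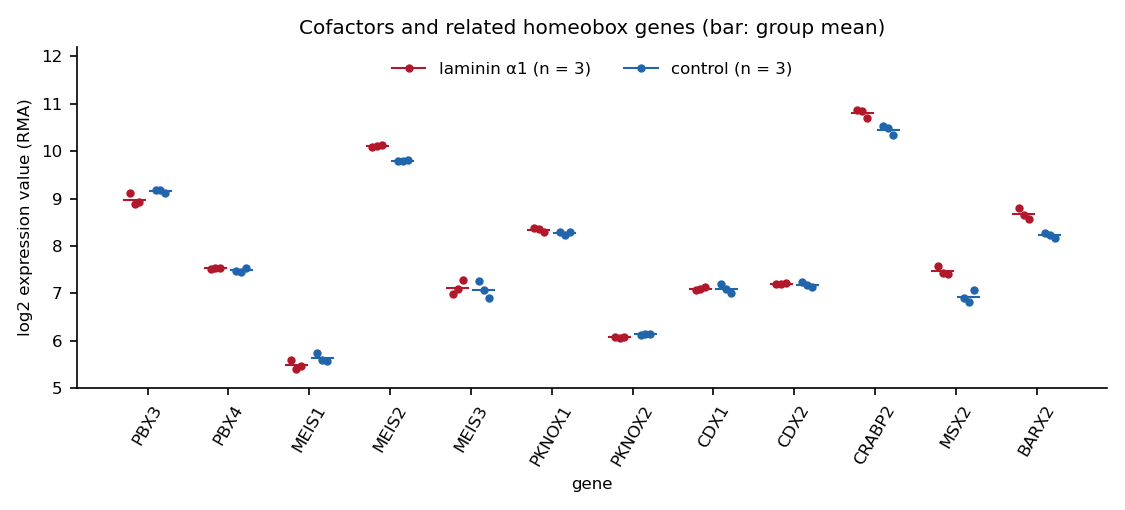
Log2 expression values per array (points) and group means (bars) of PBX and MEIS family partners, CDX1, CDX2, CRABP2, MSX2 and BARX2, with laminin α1 left and control right of each position. MEIS2, CRABP2, MSX2 and BARX2 rose, and the other genes shown were not called.

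The identity of the cells was checked with marker lists. Colon epithelial genes such as KRT18 (12.85 in laminin α1 and 12.77 in control arrays) and EPCAM (11.99 and 12.11) gave strong signals in both groups. Of 15 epithelial markers 6 fell in the laminin α1 arrays, or 40%, against 2.59% of all genes tested, and 0 rose. The list was chosen with earlier results of these data known, so this share is not an independent result. CDH17 was 3.14-fold and TFF3 3.04-fold lower, and CEACAM5, GPA33, KRT20 and LGALS4 were the others. The calls of KRT20 and LGALS4 were lost when single arrays were left out (adjusted p up to 0.0628 and 0.101). The mean over the list was 9.86 to 9.95 in laminin α1 arrays and 10.24 to 10.37 in control arrays. The median log2 difference of the list was smaller, at -0.12. Of the 15 markers 9 were within 0.2 of 0, and 11 were below 0 and 4 above. Fibroblast markers had 0 of 5 tested called, against 5.29% of all genes, with a mean of 5.12 to 5.18 over 12 genes in laminin α1 arrays and 5.09 to 5.18 in control arrays. Endothelial and blood markers had 0 of 4 called, with a mean of 5.60 to 5.62 over 10 genes in laminin α1 arrays and 5.58 to 5.61 in control arrays. PTPRC, which marks blood cells, was at 3.55 in laminin α1 and 3.65 in control arrays. The part of the fall in these 6 epithelial markers in the differences of HOXB7 and its partners was not tested. LAMA1, the gene of the laminin α1 chain, had 5.79, 5.72 and 5.71 in laminin α1 arrays and 5.71, 5.63 and 5.60 in control arrays, a difference of 0.09 (adjusted p = 0.535). Whether its probes match the construct is not given in the sources used here, so LAMA1 does not check the labels.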

How the data were processed

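RMA values on the log2 scale, as the authors deposited them, were taken unchanged, 1 for each probe set and array. Expression Console 1.1 is the software named for them, per the submitters' processing notes. RMA includes quantile normalization, which removes any shift common to all genes. Of 33297 probe sets the platform annotation listed 19460 with 1 symbol, 1754 with several and left 12083 unlisted. A gene was represented by its brightest single-symbol probe set. Precision is limited by there being 3 arrays in each group.

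A linear model with no covariates was fitted by limma 3.58.1 (R 4.3.3, lmFit, then eBayes) to 13812 genes above the 25th percentile of gene means, and p-values were Benjamini-Hochberg adjusted over them, with calls made under 0.05. All adjusted p-values are from limma. Genes below the filter have values from the fit without it. In simulated data on the 13812 genes, 61 of 100 changes of log2 0.5 were found, 14 of 100 changes of log2 0.3, and 5 calls were false. No other genes were changed there, while 730 were called in the data. The simulated noise was normal and independent between genes, with the SD of each gene as observed, which the data need not follow. The adjusted p also depends on how many genes change. The shares found and the false calls can therefore differ in the data.

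The members, the companion lists and the marker lists were chosen with earlier results of these data known. Values per array are given for HOX genes past the threshold, the 8 with the highest mean signal, and neighbours and paralogs needed to read them. Of each list the genes past the threshold were named or, with none, that with the smallest p, with values per array for some; marker lists are given by their mean level. CDX1, CDX2 and PRAC1 were named whatever their values. Some listed genes were not analysed here. Further list genes were named after their values were seen. Gene order came from RefSeq, assembly GRCh38.p14. Alternatives were other level filters, probe set means, probe sets tested separately, centring, repeated quantile normalization, a trended robust eBayes, array weights, a replicate block, stricter thresholds and each array left out.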

Additional observations from a re-analysis of the deposited data

How the results depend on the processing

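HOX genes past the threshold numbered 1 in the reported fit, 0 with all probe sets tested separately, 0 at an adjusted p under 0.01, 0 with at least 2-fold added, 5 with array weights, and 0 to 1 without each array in turn. The single call was HOXB7. With all probe sets tested separately, 33297 together and without the level filter, its adjusted p was 0.104. HOXB7 has 1 probe set, and its log2 difference there was the same 0.38. Without each of 5 arrays the adjusted p of HOXB7 was 0.0801 to 0.150. The array weights did not converge. Control replicate 2 took a weight of 10.7, against 0.477 for control replicate 3. Laminin α1 replicate 2 took 3.03, against 0.317 and 0.383 for laminin α1 replicates 1 and 3. That fit thus rests largely on 1 array of each group. It called HOXB6, HOXB9, HOXC5 and HOXD13 beside HOXB7. All genes past the threshold numbered 730, and 4691 with array weights, 393 at an adjusted p under 0.01, 67 with at least 2-fold, and 407 to 1214 without each array in turn, lowest without control replicate 2, next at 429 without laminin α1 replicate 2, and highest without laminin α1 replicate 3. Genes of the companion lists past it numbered 7, and 58 with array weights, 4 at an adjusted p under 0.01, 0 with at least 2-fold and 4 to 15 without each array in turn. The cause of these moves was not tested. The median log2 difference of the tested HOXC genes ranged from -0.035 to 0.084 without each array in turn. The other alternatives kept these counts within 1.5 times, apart from the replicate block.

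The replicate numbers share no stated source. Deviations of same-numbered arrays correlated at 0.39, 0.02 and 0.53, and those of arrays with unlike numbers at -0.49 to 0.16. Like numbers thus correlated more for replicates 1 and 3. The numbers were not taken as pairs because no shared source is stated, and whether they are pairs was not tested. With the replicate block 1596 genes in all, 1 HOX gene and 17 companion genes passed, and the adjusted p of HOXB7 was 0.0101.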

Other observations

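Over all 27 HOX genes, the median deviation of an array from each gene's control mean was 0.06, 0.03 and -0.01 in laminin α1 replicates 1, 2 and 3, and 0.06, 0.00 and -0.06 in control replicates 1, 2 and 3. The ranges of the groups overlapped widely. For the 10 HOXB genes alone the medians were 0.09, -0.03 and -0.06 in laminin α1 arrays and 0.02, 0.02 and -0.03 in control arrays.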
